A study of Mus musculus with 8 samples.

Results

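Splicing removes introns from pre-mRNA, and the genes described here encode its core machinery and the RNA-binding proteins that steer it. They are the 71 mouse genes with a symbol that starts with Snrp, Sf3a, Sf3b, Srsf, Lsm followed by a digit, Prpf or Hnrnp and with a probe set that the array annotation assigns to exactly 1 gene. Of 19938 genes with such a probe set, 13356 passed a filter on dim signal and were tested, and 70 of the 71 splicing genes were among them. The gene left out was Srsf12, an SR protein gene. The 70 tested genes fall into 17 Hnrnp, 13 Lsm, 12 Prpf, 10 Snrp, 9 Sf3a or Sf3b and 9 Srsf genes. All 70 were above the filter level, each array's own 40th percentile, on all 8 arrays. Of the genes that the rule names, Hnrnpa1, Hnrnpa3, Hnrnph3, Snrpf and Snrpn appear only on probe sets assigned to several genes and were not analysed here.

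The RNA came from dendritic cell (DC) progenitors of mouse bone marrow, sorted by flow cytometry from animals heterozygous for a Zeb2-GFP fusion reporter, which all 3 groups carry. The groups were pre-CD8 DCs (2 arrays), the Zeb2low fraction of common DC progenitors (CDPs, 3 arrays) and the Zeb2hi fraction of CDPs (3 arrays). Zeb2 encodes a transcription factor, and pre-CD8 DCs are precursors of the classical DCs known as cDC1. The labels give neither the age or strain of the mice nor if the arrays of 1 group stem from different animals. The p-values therefore cover array-to-array spread, possibly technical in origin.

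The signals are log2 values of intensities that the authors summarised per probe set by robust multi-array average (RMA). Groups were compared with limma in 1 fit over all 8 arrays, and a p-value adjusted over the 13356 genes was called past the test below 0.05. A value after ± is limma's standard error for a log2 difference and the SD over arrays for a mean. The comparisons share arrays, so that they are not independent of each other. In sorted populations, fewer cells of a type and less RNA per cell cannot be told apart. Zeb2 itself had signals of 6.93 and 6.53 in pre-CD8 DCs, 7.49, 7.69 and 7.86 in Zeb2low CDPs and 9.45, 9.05 and 9.32 in Zeb2hi CDPs, in the order that the names of the 2 CDP fractions call for. The mean of 8 cDC1 markers was 8.67 to 9.11 in pre-CD8 DCs, 7.53 to 7.75 in Zeb2low CDPs and 5.73 to 5.95 in Zeb2hi CDPs. Across the genes tested, the 2 pre-CD8 DC arrays correlated at r = 0.937, the Zeb2low arrays at 0.939 to 0.976 and the Zeb2hi arrays at 0.971 to 0.989.

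As background, the spliceosome is built from small nuclear ribonucleoproteins (snRNPs), each a small nuclear RNA with its proteins. A ring of Sm proteins holds the U1, U2, U4 and U5 RNAs, and a ring of LSm proteins holds U6. U1 marks the start of an intron, U2 with the SF3A and SF3B complexes marks its branch point, and the U4/U6.U5 tri-snRNP then joins and is rearranged for catalysis. SR proteins bind exons and mostly favour the use of nearby splice sites, while heterogeneous nuclear ribonucleoproteins (hnRNPs) coat pre-mRNA and often oppose it.

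Of the 70 splicing genes, 19 were past the test with lower signals in Zeb2low than in Zeb2hi CDPs (27.1%, against 10.3% of all genes). In pre-CD8 DCs against Zeb2hi CDPs 17 were past it with lower signals (24.3%, against 11.1% of all genes). Between pre-CD8 DCs and Zeb2low CDPs none was past the test, where only 0.337% of all genes were higher and 0.217% lower. The mean log2 signal over the 70 genes was 8.68 and 8.66 on the pre-CD8 DC arrays, 8.71, 8.71 and 8.72 on the Zeb2low arrays and 9.15, 9.22 and 9.18 on the Zeb2hi arrays. The Zeb2hi arrays stood above all 5 others. The plot of all 70 genes by array shows where this difference lay.

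**Figure D1:**
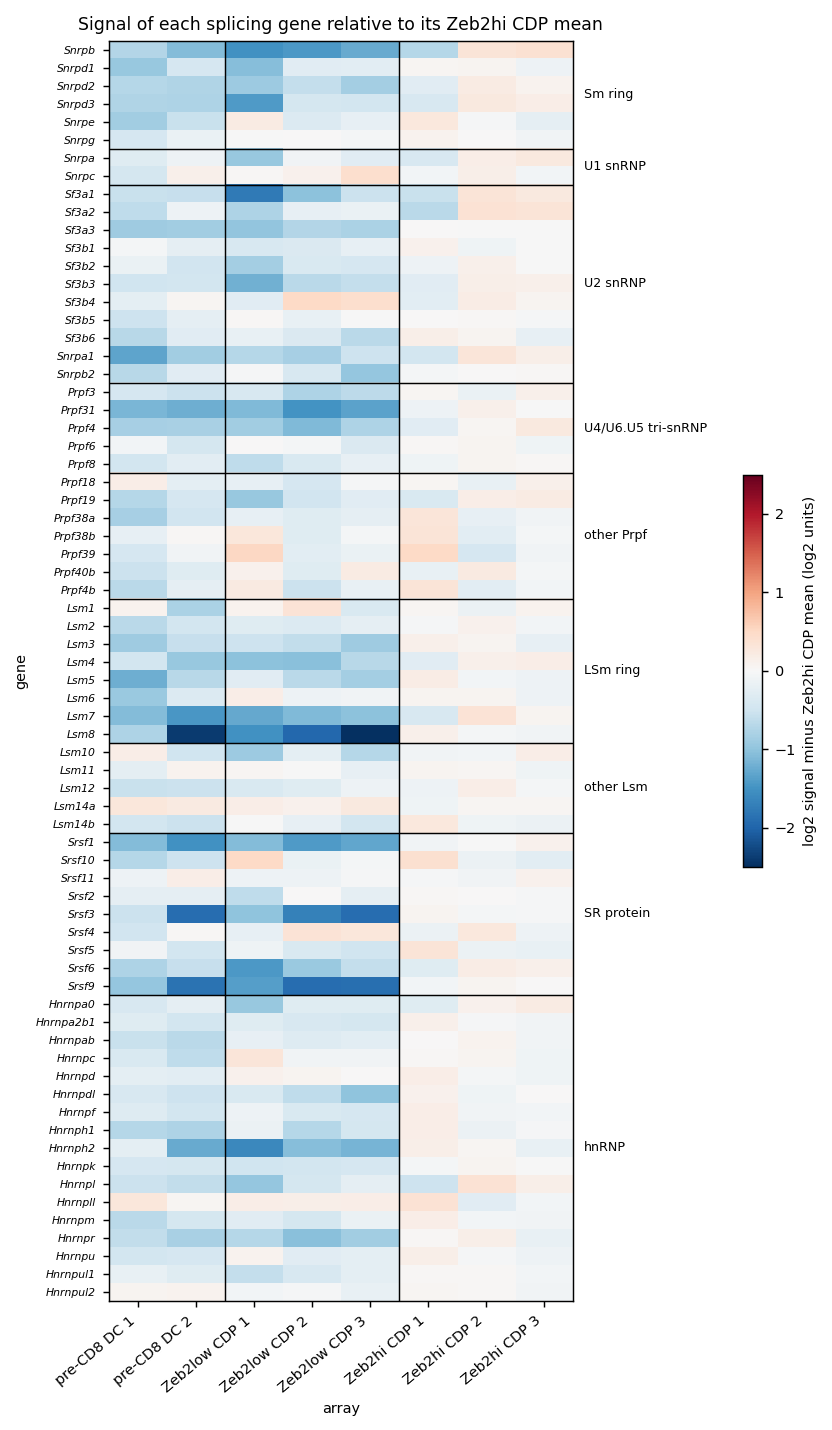
Log2 signal of each of the 70 splicing genes (rows, by role) on each of the 8 arrays (columns), minus the gene's mean over the 3 Zeb2hi arrays. Blue marks a signal below that mean, in log2 units. Most rows are blue in both pre-CD8 DCs and Zeb2low CDPs, with the darkest cells at Lsm8, Srsf3 and Srsf9, and rows such as Srsf4, Sf3b4 and Snrpc are not blue throughout.

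The genes with the steadiest calls were Srsf1, Srsf9, Sf3a3 and Prpf31. They were past the test in both comparisons against Zeb2hi CDPs under every alternative that was run, and were picked for display after their values were seen. Their sequences from the 250 bases before the annotated start (RefSeq, build GRCm38.p6, all on the plus strand) are shown to give the promoters behind the measurements. The windows are chr11:88047123-88047372 for Srsf1, chr5:115326927-115327176 for Srsf9, chr4:124714611-124714860 for Sf3a3 and chr7:3629735-3629984 for Prpf31. Capitals mark CCGGAA or its reverse complement TTCCGG, the core motif of ETS transcription factors.
Srsf1: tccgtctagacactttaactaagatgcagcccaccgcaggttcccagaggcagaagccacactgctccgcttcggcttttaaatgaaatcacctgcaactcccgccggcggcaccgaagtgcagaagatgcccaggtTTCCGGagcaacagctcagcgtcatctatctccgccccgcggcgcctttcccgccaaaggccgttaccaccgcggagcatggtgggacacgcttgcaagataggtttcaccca
Srsf9: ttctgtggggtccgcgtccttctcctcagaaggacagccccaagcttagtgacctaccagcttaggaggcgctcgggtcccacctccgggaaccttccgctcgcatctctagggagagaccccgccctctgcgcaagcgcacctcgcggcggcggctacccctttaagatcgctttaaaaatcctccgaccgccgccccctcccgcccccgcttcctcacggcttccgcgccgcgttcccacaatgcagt
Sf3a3: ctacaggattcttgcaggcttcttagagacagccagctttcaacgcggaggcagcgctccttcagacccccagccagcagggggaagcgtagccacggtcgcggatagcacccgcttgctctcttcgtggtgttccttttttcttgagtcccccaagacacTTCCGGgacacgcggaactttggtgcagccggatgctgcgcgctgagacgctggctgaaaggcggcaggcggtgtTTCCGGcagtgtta
Prpf31: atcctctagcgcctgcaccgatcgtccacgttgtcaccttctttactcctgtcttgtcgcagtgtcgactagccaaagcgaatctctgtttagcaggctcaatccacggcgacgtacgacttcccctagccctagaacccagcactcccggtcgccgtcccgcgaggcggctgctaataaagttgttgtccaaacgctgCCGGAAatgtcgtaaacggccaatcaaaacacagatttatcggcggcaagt

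The window of Sf3a3 holds 2 such matches, those of Srsf1 and Prpf31 hold 1 each and that of Srsf9 holds 0. They are 58.8%, 65.2%, 60.4% and 54.8% G or C in the order printed. Of the 70 genes, 60 had a window in the RefSeq table, with 79 windows in all because some genes have several starts. CCGGAA on either strand occurred in 33 of these 79 windows (41.8%), against 12% of all 32851 windows of the same length. Among the 31 windows of the 26 genes that were lower in either comparison against Zeb2hi CDPs, 8 held it (25.8%). CACGTG, an E-box that reads the same on both strands, occurred in 8.86% of the splicing genes' windows and 6.02% of all windows. CCAAT on either strand occurred in 44.3% of the splicing genes' windows and 33.8% of all windows. These matches describe letters in the windows and were not tested as binding sites.

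In Zeb2low against Zeb2hi CDPs, 19 of the 70 splicing genes were lower (27.1%, against 10.3% of all genes tested) and 0 were higher (against 4.5%). At an unadjusted p under 0.05, 32 were lower and 0 higher. The median difference was -0.40 (0.76-fold), against 0.03 for all genes tested, and 59 of 70 differences were negative. With the stricter filter at the 60th percentile, which drops more dim genes, 20 of 69 were lower (14.7% of all genes). The medians were then -0.41 for the splicing genes and -0.12 for all genes. The signals of 35 genes were lower on every Zeb2low array than on every Zeb2hi array (21.5% of all genes were), and those of 1 gene, Lsm14a, were higher on every one (20.2%). With a replicate block fitted on the 6 CDP arrays alone, 31 were lower (19.0% of all genes).

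In pre-CD8 DCs against Zeb2hi CDPs, 17 of 70 were lower (24.3%, against 11.1% of all genes) and 0 were higher (6.51%). At an unadjusted p under 0.05, 38 were lower and 0 higher. The median was -0.48 (0.715-fold), against -0.02 for all genes, and 66 of 70 differences were negative. All signals in pre-CD8 DCs were below all in Zeb2hi CDPs for 50 genes (27.1% of all genes) and above them for 2 (21.4%), Hnrnpul2 and Lsm14a.

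In pre-CD8 DCs against Zeb2low CDPs, limma called 0 splicing genes higher (0.337% of all genes) and 0 lower (0.217%), and the lowest adjusted p was 0.242. At an unadjusted p under 0.05, 5 were lower and 0 higher. The median was -0.02, against -0.03 for all genes, and 36 of 70 differences were negative. The pre-CD8 DC arrays were below all Zeb2low arrays for 15 genes (15.4% of all genes) and above them for 3 (12.4%), Hnrnpul2, Sf3b3 and Snrpb.

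**Figure D2:**
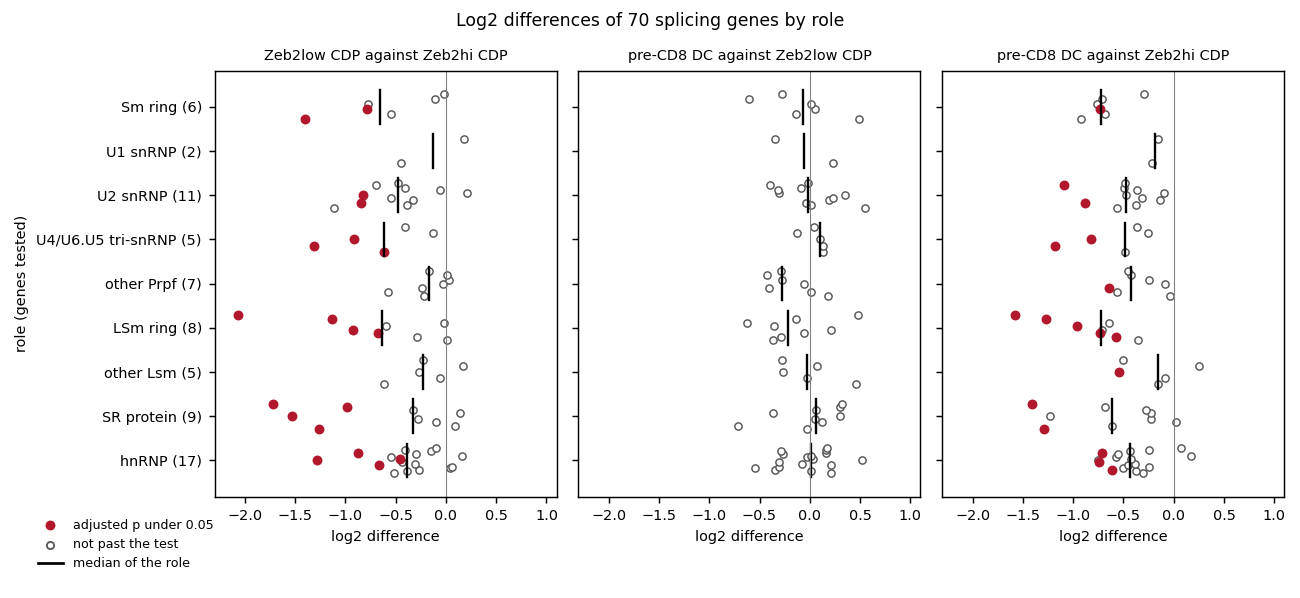
Log2 difference of each of the 70 splicing genes (points) by role (rows), for the 3 comparisons (panels); filled points had an adjusted p under 0.05 and the bar is the median of the role. In the left panel the Sm ring, the LSm ring and the tri-snRNP have medians of -0.66, -0.64 and -0.61, the middle panel has no filled point, and in the right panel 5 of 8 LSm ring genes are filled.

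The Sm ring genes encode the proteins that encircle the U1, U2, U4 and U5 RNAs. Beside the counts given here, 10.3% of all genes were lower in Zeb2low CDPs and 11.1% in pre-CD8 DCs, both against Zeb2hi CDPs. Of 6 tested, 2 were lower in Zeb2low than in Zeb2hi CDPs (median difference -0.66; 3 with the block over the 6 CDP arrays) and 1 was lower in pre-CD8 DCs than in Zeb2hi CDPs (median -0.72). Snrpb, which encodes SmB, had log2 signals of 8.07 and 7.72 in pre-CD8 DCs, 7.30, 7.37 and 7.56 in Zeb2low CDPs and 8.11, 9.14 and 9.19 in Zeb2hi CDPs. The 3 groups did not overlap, with pre-CD8 DCs in the middle, and Zeb2hi array 1 was far below the other 2. The difference between Zeb2low and Zeb2hi CDPs was -1.41 ± 0.28 (limma adjusted p = 0.0148), or 2.65-fold lower. Between pre-CD8 DCs and Zeb2hi CDPs it was -0.92 ± 0.31 (limma adjusted p = 0.0777).

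Snrpd2, which encodes SmD2, had signals of 10.94 and 10.90 in pre-CD8 DCs, 10.75, 11.06 and 10.80 in Zeb2low CDPs and 11.37, 11.85 and 11.74 in Zeb2hi CDPs. All pre-CD8 DC and Zeb2low arrays lay below the Zeb2hi arrays. The difference was -0.78 ± 0.17 for Zeb2low against Zeb2hi CDPs (limma adjusted p = 0.019) and -0.73 ± 0.19 for pre-CD8 DCs against Zeb2hi CDPs (limma adjusted p = 0.0288; 0.0571 with the replicate block). Snrpd1, Snrpd3, Snrpe and Snrpg, for the SmD1, SmD3, SmE and SmG proteins, were not past the test, with differences of -0.54, -0.77, -0.11 and -0.01 between Zeb2low and Zeb2hi CDPs. With the block over the 6 CDP arrays, Snrpd3 was past the test (limma adjusted p = 0.00765). Snrpe had the smallest p of the Snrp genes in pre-CD8 DCs against Zeb2low CDPs, at -0.60 ± 0.22 (limma adjusted p = 0.296), and Snrpg was next at -0.28 (0.453). Without Zeb2hi array 2 or 3 the Zeb2low calls of Snrpb (adjusted p = 0.0687 and 0.0636) and Snrpd2 (0.0862 and 0.0816) were lost, and that of Snrpd2 also without Zeb2low array 3 (0.0615). The pre-CD8 DC call of Snrpd2 was lost without either pre-CD8 DC array (0.0953 without array 1, 0.0927 without array 2) and without Zeb2hi array 2 or 3 (0.101 and 0.0952).

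Snrpa and Snrpc, for proteins specific to the U1 snRNP, were not past the test in any comparison fitted without the block. Snrpa differed by -0.44 ± 0.25 (past the test with the block over the 6 CDP arrays, limma adjusted p = 0.042) and Snrpc by 0.18 ± 0.19 between Zeb2low and Zeb2hi CDPs, and the arrays of these groups overlapped for both. A further U1 protein gene, Snrnp70, which the symbol rule does not take in, fell by 0.85 on the log2 scale in Zeb2low against Zeb2hi CDPs (limma adjusted p = 0.0146), a call lost without Zeb2hi array 2 or 3 (0.0694 and 0.0592). Its signals were 8.71 and 8.43 in pre-CD8 DCs, 8.04, 8.34 and 8.36 in Zeb2low CDPs and 8.91, 9.31 and 9.07 in Zeb2hi CDPs.

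The U2 snRNP carries the products of Snrpa1 and Snrpb2 and the SF3A and SF3B complexes that clamp it to the branch point. Of these 11 genes, 2 were lower in Zeb2low than in Zeb2hi CDPs (median -0.47, with 10.3% of all genes lower). In pre-CD8 DCs against Zeb2hi CDPs 2 were lower (median -0.48, with 11.1% of all genes lower). Sf3a3 had signals of 7.92 and 7.94 in pre-CD8 DCs, 7.82, 8.07 and 8.03 in Zeb2low CDPs and 8.82, 8.81 and 8.81 in Zeb2hi CDPs. The Zeb2hi arrays had an SD of 0.01 and lay above all others. The difference was -0.84 ± 0.13 in Zeb2low CDPs (1.79-fold lower, limma adjusted p = 0.00608) and -0.88 ± 0.15 in pre-CD8 DCs (1.84-fold lower, limma adjusted p = 0.00527), both against Zeb2hi CDPs.

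Sf3b3, an SF3B scaffold gene, had signals of 8.67 and 8.70 in pre-CD8 DCs, 7.96, 8.50 and 8.56 in Zeb2low CDPs and 8.88, 9.31 and 9.30 in Zeb2hi CDPs. As for Snrpb, the groups did not overlap and pre-CD8 DCs lay between the CDP fractions; these 2 genes are 2.86% of the splicing genes, and 1.62% of all genes had this order. Sf3b3 was lower in Zeb2low than in Zeb2hi CDPs, at -0.82 ± 0.20 (limma adjusted p = 0.0272), a call that was lost without Zeb2low array 1 or 2 (0.0533 and 0.0521) or Zeb2hi array 2 or 3 (0.111 and 0.107). Its difference between pre-CD8 DCs and Zeb2low CDPs was 0.34 (0.542).

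Snrpa1 showed the opposite placing of pre-CD8 DCs, with signals of 7.93 and 8.37 there, 8.52, 8.40 and 8.71 in Zeb2low CDPs and 8.79, 9.53 and 9.39 in Zeb2hi CDPs. It was lower in pre-CD8 DCs than in Zeb2hi CDPs, at -1.09 ± 0.25 (2.13-fold, limma adjusted p = 0.0187), but not without pre-CD8 DC array 1 (0.112) or Zeb2hi array 2 or 3 (0.0668 and 0.0669). In Zeb2low against Zeb2hi CDPs the difference was -0.69 ± 0.22 (0.0686). With the block over the 6 CDP arrays, Snrpa1 (0.0294), Sf3a1 (0.00326), Sf3b2 (0.0207) and Sf3b6 (0.044) were also past the test in that comparison. Sf3a1 differed by -1.11 ± 0.33 (0.0553) with 1 Zeb2low and 1 Zeb2hi array overlapping. Sf3b1, the branch point gene often mutated in human myeloid neoplasms, differed by -0.33 ± 0.14 (0.132), and Sf3b4 by 0.21 ± 0.23 (0.553).

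The order Zeb2hi, Zeb2low, pre-CD8 DC from high to low, without overlap, was seen for 4 splicing genes (5.71%, against 3.29% of all genes), Snrpa1, Lsm2, Prpf38a and Hnrnpab. For Prpf38a the highest Zeb2low and the lowest Zeb2hi signal are equal once rounded. No other order without overlap than this and that of Sf3b3 and Snrpb occurred among the 70 genes; the share of all genes with the opposite order, pre-CD8 DC highest and Zeb2hi lowest, was 2.54%. In the fit without the block, none of the 4 genes was past the test between Zeb2low and Zeb2hi CDPs or between pre-CD8 DCs and Zeb2low CDPs.

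The proteins of the U4/U6.U5 tri-snRNP among the 70 genes are encoded by Prpf3, Prpf4 and Prpf31, which hold U4 and U6 together, and Prpf6 and Prpf8, which belong to U5; Prpf8 lies at the catalytic centre. The U4/U6 genes Prpf31, Prpf4 and Prpf3 were lower in Zeb2low than in Zeb2hi CDPs, and the U5 genes Prpf8 (-0.41 ± 0.15, limma adjusted p = 0.11) and Prpf6 (-0.13 ± 0.16, 0.589) were not past the test. Whether the U4/U6 and U5 genes differ from each other was not tested.

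Prpf31, also known as a gene of inherited retinal degeneration in humans, had the lowest adjusted p of the 70 genes in both comparisons against Zeb2hi CDPs. Its signals were 7.20 and 7.13 in pre-CD8 DCs, 7.23, 6.85 and 7.01 in Zeb2low CDPs and 8.22, 8.47 and 8.34 in Zeb2hi CDPs, with every Zeb2hi array above the 5 others. It was 2.48-fold lower in Zeb2low CDPs (-1.31 ± 0.15, limma adjusted p = 0.00213) and 2.26-fold lower in pre-CD8 DCs (-1.18 ± 0.17, limma adjusted p = 0.00277). Prpf4 had signals of 6.93 and 6.97 in pre-CD8 DCs, 6.89, 6.67 and 7.0 in Zeb2low CDPs and 7.48, 7.82 and 8.0 in Zeb2hi CDPs. Its difference was -0.92 ± 0.17 in Zeb2low CDPs (limma adjusted p = 0.0118) and -0.82 ± 0.19 in pre-CD8 DCs (limma adjusted p = 0.0208; 0.0584 with the replicate block). Again the Zeb2hi arrays were above all others. Prpf3 was lower in Zeb2low CDPs, at -0.61 ± 0.15 (limma adjusted p = 0.0311). The call of Prpf4 in Zeb2low CDPs was lost without Zeb2hi array 2 (0.0588) or 3 (0.0572), and its call in pre-CD8 DCs without either of these (0.073 and 0.0746) or either pre-CD8 DC array (0.0862 and 0.0617). The call of Prpf3 was lost without Zeb2low array 2 or 3 (0.101 and 0.0892) or any Zeb2hi array (0.065, 0.0691 and 0.124).

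The 7 other Prpf genes act before or around catalysis: Prpf38a, Prpf38b and Prpf4b in activation of the spliceosome, Prpf19 as the ubiquitin ligase of the PRP19 complex, Prpf18 in the second catalytic step, and Prpf39 and Prpf40b as U1-associated proteins. Of these, 0 were lower in Zeb2low than in Zeb2hi CDPs (median -0.17, with 10.3% of all genes lower). In pre-CD8 DCs against Zeb2hi CDPs 1, Prpf38a, was lower (median -0.42, with 11.1% of all genes lower). Prpf19, at -0.57 in Zeb2low CDPs, was past the test with the block over the 6 CDP arrays (limma adjusted p = 0.0149) and over all arrays (0.049). Prpf38a had signals of 7.23 and 7.58 in pre-CD8 DCs, 7.85, 7.74 and 7.84 in Zeb2low CDPs and 8.35, 7.85 and 7.96 in Zeb2hi CDPs. The difference of -0.65 ± 0.19 between pre-CD8 DCs and Zeb2hi CDPs was just past the test (limma adjusted p = 0.0494; 0.111 with the replicate block). It was lost without any 1 of 7 arrays, with adjusted p from 0.0531 without Zeb2low array 1 to 0.239 without pre-CD8 DC array 1, and held only without pre-CD8 DC array 2. Between pre-CD8 DCs and Zeb2low CDPs, the Prpf genes with the smallest p were Prpf38a at -0.41 ± 0.19 (0.408) and Prpf40b at -0.43 ± 0.20 (0.409).

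Lsm2 to Lsm8 encode the nuclear ring that binds the end of U6 RNA, and Lsm1 takes the place of Lsm8 in a cytoplasmic ring that promotes mRNA decay. Of these 8 genes, 4 were lower in Zeb2low than in Zeb2hi CDPs (median -0.64, with 10.3% of all genes lower). In pre-CD8 DCs against Zeb2hi CDPs 5 were lower (median -0.72, with 11.1% of all genes lower). With 1 probe set per gene, Lsm8 had the largest difference of all 70 genes. Its signals were 9.09 and 7.48 in pre-CD8 DCs, 8.35, 7.90 and 7.17 in Zeb2low CDPs and 10.00, 9.81 and 9.79 in Zeb2hi CDPs. The pre-CD8 DC arrays lay far apart, yet both were below every Zeb2hi array. Lsm8 was 4.18-fold lower in Zeb2low CDPs (-2.06 ± 0.41, limma adjusted p = 0.0148) and 3-fold lower in pre-CD8 DCs (-1.58 ± 0.46, limma adjusted p = 0.0455). The call in Zeb2low CDPs was lost without Zeb2hi array 2 or 3 (0.0588 and 0.0561), and that in pre-CD8 DCs without pre-CD8 DC array 2 (0.235), Zeb2low array 2 (0.0611) or any Zeb2hi array (0.0988, 0.107 and 0.103). Lsm1, the cytoplasmic counterpart, differed by 0.01 ± 0.26 in Zeb2low CDPs (0.974) and by -0.35 ± 0.29 in pre-CD8 DCs (0.442); the difference between Lsm1 and Lsm8 was not tested.

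Lsm7 had signals of 9.54 and 9.17 in pre-CD8 DCs, 9.35, 9.53 and 9.59 in Zeb2low CDPs and 10.22, 10.96 and 10.69 in Zeb2hi CDPs, again with all Zeb2hi arrays on top. Its difference was -1.13 ± 0.21 in Zeb2low CDPs (limma adjusted p = 0.0108, and 0.0528 without Zeb2hi array 3) and -1.27 ± 0.23 in pre-CD8 DCs (2.42-fold lower, limma adjusted p = 0.00754). Lsm4 and Lsm3 completed the calls in Zeb2low CDPs. Lsm4 had signals of 7.83 and 7.35 in pre-CD8 DCs, 7.28, 7.26 and 7.60 in Zeb2low CDPs and 8.01, 8.43 and 8.47 in Zeb2hi CDPs, and was lower in Zeb2low than in Zeb2hi CDPs, at -0.92 ± 0.20 (limma adjusted p = 0.0182). That call was lost without Zeb2low array 2 (0.058) or Zeb2hi array 2 or 3 (0.0804 and 0.0811). Lsm3 had signals of 8.50 and 8.80 in pre-CD8 DCs, 8.87, 8.77 and 8.49 in Zeb2low CDPs and 9.52, 9.46 and 9.18 in Zeb2hi CDPs. It was lower, with a difference of -0.67 ± 0.17 in Zeb2low CDPs (limma adjusted p = 0.0312) and of -0.73 ± 0.19 in pre-CD8 DCs (limma adjusted p = 0.03). For Lsm3 the call in Zeb2low CDPs was lost without any of 5 CDP arrays (highest 0.12, without Zeb2hi array 2) and held without Zeb2low array 1, and the call in pre-CD8 DCs was lost without pre-CD8 DC array 1 (0.157) or Zeb2hi array 1 or 2 (0.0712 and 0.0983).

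Lsm5 and Lsm2 were past the test only in pre-CD8 DCs against Zeb2hi CDPs, which does not show that they differed between the comparisons. Lsm5 had signals of 8.63 and 9.15 in pre-CD8 DCs, 9.58, 9.18 and 9.0 in Zeb2low CDPs and 10.03, 9.79 and 9.73 in Zeb2hi CDPs. It was lower, with a difference of -0.96 ± 0.23 in pre-CD8 DCs (limma adjusted p = 0.0218) and differed by -0.60 ± 0.20 in Zeb2low CDPs (0.081; past the test with the block over the 6 CDP arrays, 0.0146). Lsm2 had signals of 9.67 and 9.89 in pre-CD8 DCs, 10.05, 10.01 and 10.14 in Zeb2low CDPs and 10.33, 10.45 and 10.29 in Zeb2hi CDPs. It stepped down without overlap and was lower, with a difference of -0.57 ± 0.15 in pre-CD8 DCs than in Zeb2hi CDPs (limma adjusted p = 0.0308; 0.0785 with the replicate block). Both calls were lost without pre-CD8 DC array 1 (0.131 for Lsm5, 0.149 for Lsm2) or any Zeb2hi array (highest 0.0614 for Lsm5 and 0.11 for Lsm2, both without Zeb2hi array 2). With 1 probe set per gene, Lsm6 had the lowest limma adjusted p of any splicing gene in pre-CD8 DCs against Zeb2low CDPs, 0.242. Its difference was -0.62 ± 0.20, with all pre-CD8 DC arrays below all Zeb2low arrays.

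The remaining Lsm genes lie outside these rings: Lsm10 and Lsm11 belong to the U7 snRNP of histone pre-mRNA processing, and Lsm14a and Lsm14b encode proteins of cytoplasmic mRNA granules. Of 5, 0 were lower in Zeb2low than in Zeb2hi CDPs (median -0.23, with 10.3% of all genes lower). With the block over the 6 CDP arrays 1 was, Lsm10, at -0.62 (limma adjusted p = 0.0351). In pre-CD8 DCs against Zeb2hi CDPs 1, Lsm12, was lower (median -0.16, with 11.1% of all genes lower). Lsm12 differed by -0.54 ± 0.16 in pre-CD8 DCs against Zeb2hi CDPs (limma adjusted p = 0.0488; 0.114 with the replicate block, and up to 0.16 with 1 array left out). It lost its call without any 1 of 7 arrays and kept it only without Zeb2low array 1. Lsm14a was the only splicing gene with all Zeb2low arrays above all Zeb2hi arrays, with signals of 9.04 and 8.99 in pre-CD8 DCs, 8.94, 8.87 and 9.02 in Zeb2low CDPs and 8.66, 8.82 and 8.81 in Zeb2hi CDPs. Its difference of 0.17 ± 0.13 was not past the test (0.36).

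**Figure D3:**
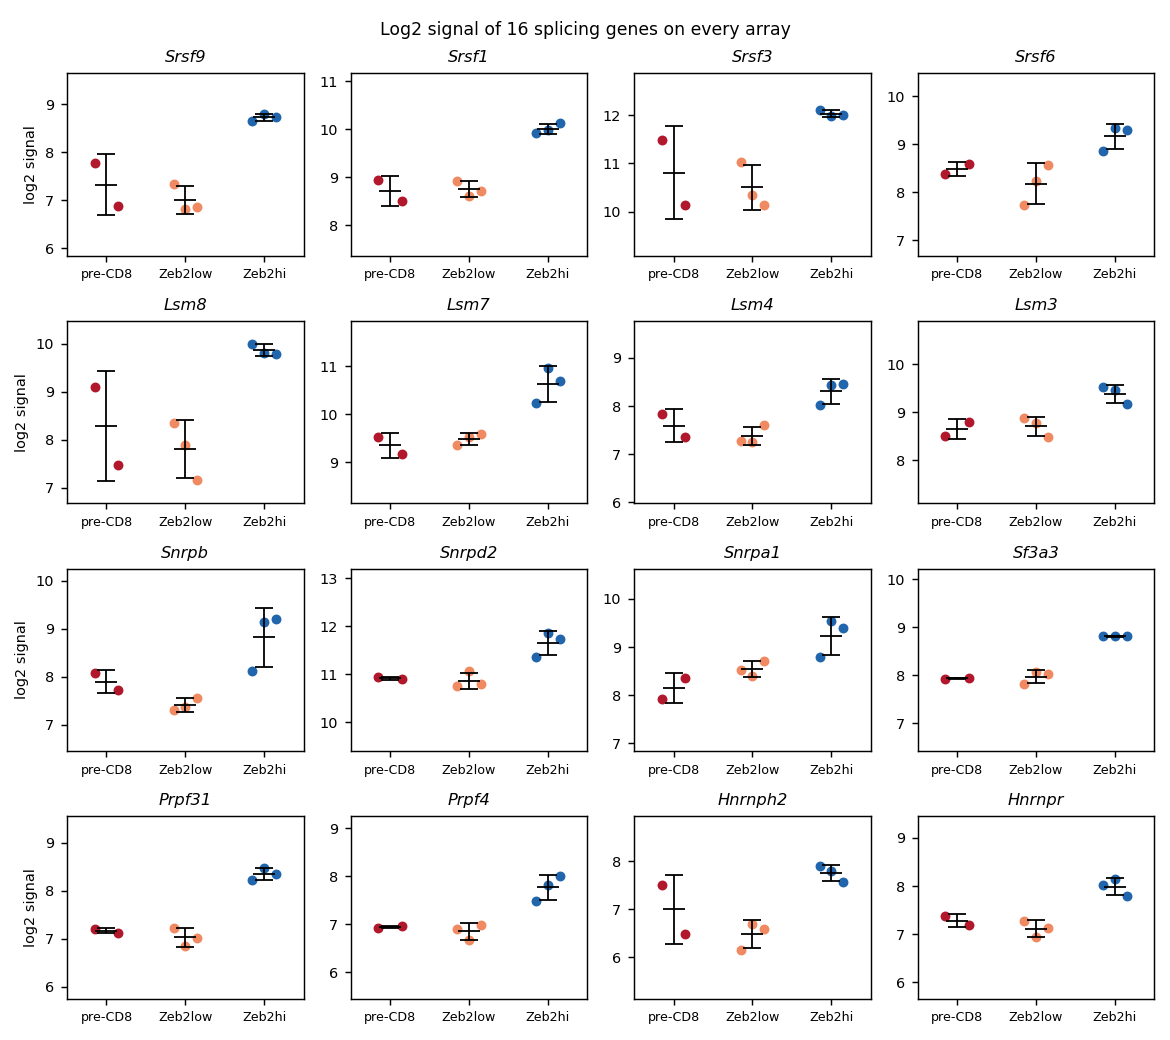
Log2 signal of 16 splicing genes on every array, in pre-CD8 DCs (2 arrays), Zeb2low CDPs (3) and Zeb2hi CDPs (3). Points are arrays and bars are the mean ± SD of the group; each panel has its own range of the log2 axis, all of the same width apart from rounding of ticks. The 16 genes were picked from those called lower against Zeb2hi CDPs. That the 3 Zeb2hi arrays lie above all others in all 16 panels therefore largely follows from this choice. Of the 70 splicing genes, 35 had every Zeb2low array below every Zeb2hi array (21.5% of all genes tested did). For the pre-CD8 DC arrays these values were 50 genes and 27.1%.

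Of 9 SR protein genes, 4 were lower in Zeb2low than in Zeb2hi CDPs (median -0.33, with 10.3% of all genes lower). After quantile normalization 2 were, and the median turned to 0.06. In pre-CD8 DCs against Zeb2hi CDPs 2 were lower (median -0.62, with 11.1% of all genes lower). Srsf1, the first known SR protein and a splicing enhancer that also acts in mRNA export, had signals of 8.94 and 8.50 in pre-CD8 DCs, 8.93, 8.60 and 8.71 in Zeb2low CDPs and 9.92, 10.00 and 10.12 in Zeb2hi CDPs. Srsf9, its close relative, had signals of 7.77 and 6.87 in pre-CD8 DCs, 7.34, 6.82 and 6.85 in Zeb2low CDPs and 8.65, 8.79 and 8.74 in Zeb2hi CDPs. For both genes the Zeb2hi arrays stood close together, well above the other 5. Srsf1 was 2.4-fold lower in Zeb2low CDPs (-1.26 ± 0.16, limma adjusted p = 0.00327) and 2.45-fold lower in pre-CD8 DCs (-1.29 ± 0.18, limma adjusted p = 0.00284). Srsf9 was 3.3-fold lower in Zeb2low CDPs (-1.72 ± 0.24, limma adjusted p = 0.00429) and 2.65-fold lower in pre-CD8 DCs (-1.41 ± 0.27, limma adjusted p = 0.00962). Neither was past the test between pre-CD8 DCs and Zeb2low CDPs (-0.03 ± 0.18 for Srsf1, 0.32 ± 0.27 for Srsf9).

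Srsf3, the smallest SR protein, which couples splicing to export and polyadenylation, had signals of 11.50 and 10.13 in pre-CD8 DCs, 11.03, 10.35 and 10.14 in Zeb2low CDPs and 12.11, 11.98 and 12.01 in Zeb2hi CDPs. The pre-CD8 DC arrays differed by more than a log2 unit, and both were below the Zeb2hi arrays. These values are from the probe set that stood for the gene. Another Srsf3 probe set, described below, differed by 0.41 in Zeb2low against Zeb2hi CDPs (limma adjusted p = 0.438). Srsf3 was 2.89-fold lower in Zeb2low CDPs (-1.53 ± 0.35, limma adjusted p = 0.0221), and differed by -1.23 ± 0.39 in pre-CD8 DCs (0.0595; past the test with the replicate block, 0.0387). Srsf6 had signals of 8.38 and 8.58 in pre-CD8 DCs, 7.73, 8.24 and 8.58 in Zeb2low CDPs and 8.86, 9.34 and 9.29 in Zeb2hi CDPs, and was lower in Zeb2low CDPs, at -0.98 ± 0.23 (limma adjusted p = 0.0257). Without Zeb2low array 2 the calls of Srsf3 and Srsf6 were lost (0.0642 and 0.0619), as they were without Zeb2hi array 2 (0.0777 and 0.105) or 3 (0.0774 and 0.101), and that of Srsf3 without Zeb2low array 3 (0.0722).

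The other SR genes were not past the test in Zeb2low against Zeb2hi CDPs. Srsf2, often mutated in human myeloid neoplasms, differed by -0.28 ± 0.17 (limma adjusted p = 0.28), Srsf5 by -0.33 ± 0.19 (0.261), Srsf11 by -0.10 (0.636), Srsf10 by 0.09 (0.79) and Srsf4 by 0.14 (0.675). Srsf10 is a splicing repressor when dephosphorylated. With 1 probe set per gene, it had the largest difference of the 70 genes between pre-CD8 DCs and Zeb2low CDPs. Its signals were 9.22 and 9.43 in pre-CD8 DCs, 10.43, 9.78 and 9.89 in Zeb2low CDPs and 10.35, 9.79 and 9.68 in Zeb2hi CDPs. Both pre-CD8 DC arrays were below all CDP arrays, but the difference of -0.71 ± 0.26 was not past the test (0.294). On the other Srsf10 probe set the difference was -0.55 (limma adjusted p = 0.455). There pre-CD8 DC array 1, at 7.23, was above Zeb2low array 2, at 7.18. The Srsf3 probe set that differed by 0.41 between the CDP fractions was at -1.40 in this comparison (limma adjusted p = 0.196).

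Of the 17 hnRNP genes, 4 were lower in Zeb2low than in Zeb2hi CDPs (median -0.38, with 10.3% of all genes lower). In pre-CD8 DCs against Zeb2hi CDPs 3 were lower (median -0.44, with 11.1% of all genes lower). After quantile normalization these counts were 2 and 0, and the median in Zeb2low CDPs turned to 0.01, with 9 of 17 differences positive. With the block over the 6 CDP arrays 7 were lower in Zeb2low CDPs, adding Hnrnpa0 (-0.52, limma adjusted p = 0.0225), Hnrnpl (-0.54, 0.0279) and Hnrnph1 (-0.43, 0.0408). Hnrnph2, one of the G-tract binding proteins, had signals of 7.51 and 6.49 in pre-CD8 DCs, 6.15, 6.69 and 6.59 in Zeb2low CDPs and 7.90, 7.79 and 7.57 in Zeb2hi CDPs. Pre-CD8 DC array 1 came close to the lowest Zeb2hi array. It was 2.42-fold lower in Zeb2low CDPs (-1.28 ± 0.27, limma adjusted p = 0.0171) and differed by -0.76 ± 0.30 in pre-CD8 DCs (0.117; 0.0242 without pre-CD8 DC array 1). Hnrnpr, a close relative of Syncrip, had signals of 7.37 and 7.19 in pre-CD8 DCs, 7.28, 6.95 and 7.12 in Zeb2low CDPs and 8.03, 8.14 and 7.80 in Zeb2hi CDPs. All Zeb2hi arrays were above the others. The difference was -0.87 ± 0.16 in Zeb2low CDPs (limma adjusted p = 0.00992) and -0.71 ± 0.17 in pre-CD8 DCs (limma adjusted p = 0.0245). The Zeb2low call of Hnrnph2 was lost without Zeb2hi array 2 or 3 (0.071 and 0.0532) and that of Hnrnpr without Zeb2hi array 2 (0.0537); the pre-CD8 DC call of Hnrnpr was lost without either pre-CD8 DC array (0.0597 and 0.102) or Zeb2hi array 1 or 2 (0.0539 and 0.0908).

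Hnrnpdl and Hnrnpk were lower in Zeb2low CDPs by smaller amounts. Hnrnpdl had signals of 9.62 and 9.51 in pre-CD8 DCs, 9.65, 9.39 and 9.02 in Zeb2low CDPs and 10.12, 9.90 and 10.03 in Zeb2hi CDPs, with a difference of -0.67 ± 0.18 between the CDP fractions (limma adjusted p = 0.0382; -0.33 and 0.338 after quantile normalization). Hnrnpk, a poly(C)-binding protein, had signals of 10.81 and 10.79 in pre-CD8 DCs, 10.73, 10.76 and 10.80 in Zeb2low CDPs and 11.17, 11.28 and 11.21 in Zeb2hi CDPs. The arrays of each group were tight, and the difference was -0.46 ± 0.12 (limma adjusted p = 0.0372; 0.0769 with the replicate block over all arrays). After quantile normalization the difference of Hnrnpk was -0.08 (0.737), for the probe set that stood for the gene. Its other probe sets are given below. The call of Hnrnpk was lost without any 1 of the 6 CDP arrays (0.0536 to 0.145), and that of Hnrnpdl without any of 5 of them (0.0843 to 0.12), holding without Zeb2low array 1.

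Hnrnph1 and Hnrnpab were lower in pre-CD8 DCs than in Zeb2hi CDPs. Hnrnph1 had signals of 10.50 and 10.45 in pre-CD8 DCs, 11.07, 10.49 and 10.77 in Zeb2low CDPs and 11.39, 11.06 and 11.19 in Zeb2hi CDPs, a difference of -0.74 ± 0.20 between pre-CD8 DCs and Zeb2hi CDPs (limma adjusted p = 0.034). Hnrnpab had signals of 10.41 and 10.29 in pre-CD8 DCs, 10.75, 10.64 and 10.70 in Zeb2low CDPs and 10.97, 11.04 and 10.86 in Zeb2hi CDPs. It stepped down without overlap, by -0.61 ± 0.14 over both steps (limma adjusted p = 0.0212; 0.0554 with the replicate block). Both calls were lost without pre-CD8 DC array 1 (0.106 for Hnrnph1, 0.0573 for Hnrnpab) or array 2 (0.106 and 0.0812) and without Zeb2hi array 2 (0.0661 and 0.0821) or 3 (0.0903 and 0.0527), and that of Hnrnph1 also without Zeb2hi array 1 (0.0806) or Zeb2low array 3 (0.0561). In pre-CD8 DCs against Zeb2low CDPs, Hnrnpc, a nuclear hnRNP that binds U tracts, had the smallest p of the hnRNP genes, at -0.55 ± 0.18 (0.244), and Hnrnpab was next at -0.34 (0.356).

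Close relatives did not always have like values in Zeb2low against Zeb2hi CDPs, fitted here without the block; differences between relatives were not tested. Hnrnpdl was past the test and its relative Hnrnpd differed by 0.06 ± 0.13 (limma adjusted p = 0.766). Srsf6 was past the test, while Srsf4 and Srsf5 differed by 0.14 and -0.33. Hnrnph2 was past the test, and Hnrnph1 and Hnrnpf differed by -0.43 (0.128) and -0.31 (0.181). Hnrnpl and Hnrnpll, a regulator of Cd45 splicing in lymphocytes, differed by -0.54 ± 0.26 (0.183) and 0.16 ± 0.18 (0.563), and Lsm14a and Lsm14b by 0.17 and -0.23. For 2 further pairs neither gene was past the test: Snrpa and Snrpb2 at -0.44 and -0.47, and Hnrnpul1 and Hnrnpul2 at -0.41 and -0.10. Hnrnpu, related to both of the last pair, differed by -0.14, and the pair Prpf38a and Prpf38b by -0.24 and -0.03.

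Of the splicing genes, 13 had more than 1 probe set, and the probe set with the highest mean signal stood for the gene. For Snrpd2, all 5 probe sets were lower in Zeb2low than in Zeb2hi CDPs, at -0.78 to -1.28, each past the test. Srsf3 had 3 probe sets that disagreed: 2 were lower, at -1.53 and -1.55 (limma adjusted p = 0.022 and 0.0265), and the third differed by 0.41 (0.438). The disagreeing probe set had signals of 7.25 and 7.58 in pre-CD8 DCs, 9.28, 8.52 and 8.64 in Zeb2low CDPs and 9.11, 8.44 and 7.67 in Zeb2hi CDPs, so that the statement about Srsf3 depends on the probe set. Lsm5 had 1 probe set that was lower, at -2.07 (0.00416) beside 2 at -0.60 and -0.63 that were not past the test. Hnrnpf, not past the test with the probe set used, had 2 others that were lower, at -0.75 (0.0237) and -0.94 (0.0293). The 2 other Hnrnpk probe sets were lower in Zeb2low CDPs, at -0.53 (0.026) and -0.83 (0.00973). Against Zeb2hi CDPs they were also lower in pre-CD8 DCs, at -0.51 (0.0391) and -0.70 (0.0217). In that comparison the other Hnrnph2 probe set was lower, at -0.79 (0.0425), while 2 Snrpd2 probe sets, at -0.87 (0.0903) and -0.97 (0.0605), were not past the test. The values of genes with near-identical copies are uncertain, because probes can be shared between copies and probe positions were not used here.

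**Figure D4:**
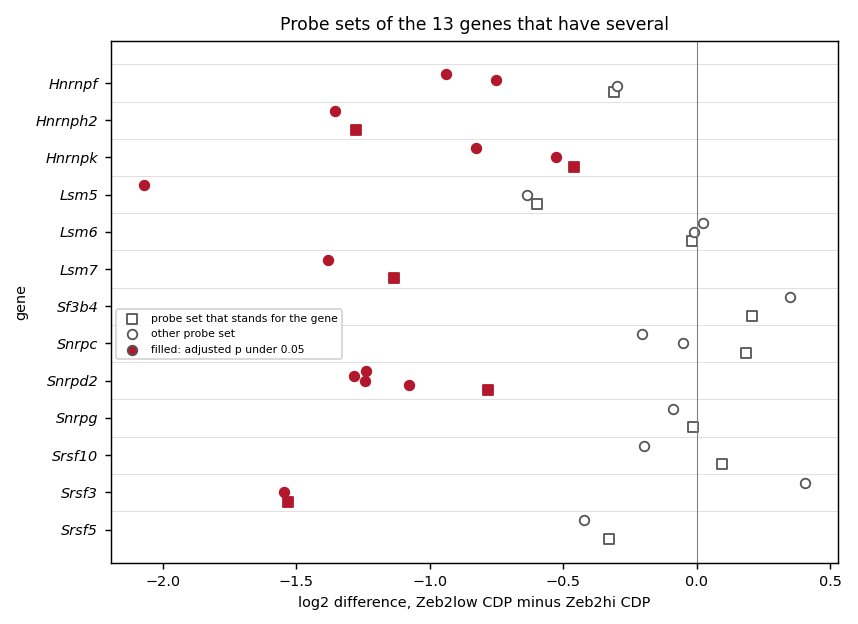
Log2 difference between Zeb2low and Zeb2hi CDPs for every probe set of the 13 splicing genes with several. Squares stand for the gene in the text, circles are other probe sets, and filled symbols had an adjusted p under 0.05. All 5 Snrpd2 probe sets are filled and negative, while Srsf3 has 2 filled probe sets near -1.5 and 1 open one at 0.41.

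Pathway genes outside the symbol rule were counted in lists written for this work, beside shares of all genes tested of 10.3% lower in Zeb2low CDPs and 11.1% lower in pre-CD8 DCs. Assembly of the Sm ring needs the SMN complex and the methylation of Sm proteins, and of its 14 genes 5 were lower in Zeb2low CDPs and 6 in pre-CD8 DCs, both against Zeb2hi CDPs (35.7% and 42.9%, medians -0.52 and -0.67). Gemin6, a subunit of the SMN complex, had signals of 6.30 and 6.50 in pre-CD8 DCs, 6.71, 6.67 and 6.08 in Zeb2low CDPs and 8.42, 7.67 and 7.69 in Zeb2hi CDPs. It was lower, with a difference of -1.44 ± 0.25 in Zeb2low CDPs (limma adjusted p = 0.00924) and of -1.52 ± 0.28 in pre-CD8 DCs (limma adjusted p = 0.0078). Clns1a, the chaperone that presents Sm proteins for methylation, was lower, at -0.88 in Zeb2low CDPs (0.014), and Gemin8, at -1.08 in pre-CD8 DCs (0.00732).

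For branch point recognition, 3 of 12 genes were lower in Zeb2low CDPs and 4 in pre-CD8 DCs against Zeb2hi CDPs (25% and 33.3%, medians -0.37 and -0.23). Phf5a, a further SF3B subunit, was lower in Zeb2low CDPs, at -1.26 (limma adjusted p = 0.0231) and U2af1, which reads the end of the intron, at -0.97 (0.00705). In pre-CD8 DCs these were at -1.09 (0.0476; 0.0662 with the replicate block) and -0.79 (0.0177; 0.0625 with the block). Of 19 genes of the PRP19 complex and the catalytic spliceosome, 4 were lower in Zeb2low CDPs and 3 in pre-CD8 DCs (21.1% and 15.8%, medians -0.42 and -0.58); Ppil1, a spliceosomal prolyl isomerase, was lower in Zeb2low CDPs, at -1.92 (0.0263; 0.0579 with the block over all arrays) and Plrg1 in pre-CD8 DCs, at -0.91 (0.0208). Of 14 further tri-snRNP proteins and helicases, 2 were lower in Zeb2low CDPs, Cd2bp2 at -0.76 (0.0344) and Snu13 at -0.65 (0.0212), and 1 in pre-CD8 DCs, Snu13 at -0.83 (0.0102). These shares, 14.3% and 7.14%, are near those of all genes. Of 6 genes with Snrnp symbols, Snrnp70 was lower in Zeb2low CDPs and Snrnp35, of the minor spliceosome, in pre-CD8 DCs (-0.94, 0.0114; 0.0716 without pre-CD8 DC array 1).

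Among SR-related proteins and SR kinases, 4 of 20 were lower in Zeb2low CDPs and 1 in pre-CD8 DCs against Zeb2hi CDPs (medians -0.20 and -0.20); the share in pre-CD8 DCs, 5%, is below that of all genes. Tra2a, an SR-like splicing activator, was lower, at -0.78 in Zeb2low CDPs (limma adjusted p = 0.0228), and Srpk1, a kinase of SR proteins, at -0.93 in pre-CD8 DCs (0.00436). Of 15 genes of the exon junction complex and mRNA export, 3 were lower in Zeb2low CDPs and 2 in pre-CD8 DCs (13.3%, near the share of all genes), among them Thoc3 at -1.35 (0.00656) and -1.20 (0.0112). Of 34 other regulators of splice choice, 8 were lower in Zeb2low CDPs (23.5%), and in pre-CD8 DCs 7 were lower (20.6%) and 1, Mbnl2, was higher by 0.66 (0.0358; 0.0799 with the block). Tia1, which binds U-rich sequence at the start of introns, was lower, at -1.14 in Zeb2low CDPs (0.0115) and -1.36 in pre-CD8 DCs (0.00641), and Tardbp, which represses cryptic exons, at -0.99 (0.0047) and -1.15 (0.00256). In pre-CD8 DCs against Zeb2low CDPs, limma called 0 genes in each of these lists. Of the 30 calls over all 8 lists in Zeb2low CDPs, 4 held under every alternative, those of Gemin6, U2af1, Thoc3 and Tardbp, and 18 were lost after quantile normalization. Of the 26 in pre-CD8 DCs, 5 held, those of Gemin8, Snu13, Fubp1, Tia1 and Tardbp, and 11 were lost after quantile normalization. The median of the SR-related list in Zeb2low CDPs then turned to 0.03, and those of the other lists stayed negative. With the block over the 6 CDP arrays, 53 of these genes were lower and 1 higher in Zeb2low CDPs; with the block over all arrays, 23 were lower in Zeb2low CDPs and 17 in pre-CD8 DCs, where Mbnl2 was no longer past the test.

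Lists of cell type markers also differed between the groups, in part in the opposite direction to the splicing genes. Of 12 neutrophil markers, 11 were tested, and their mean log2 signal was 12.15 and 10.22 on the pre-CD8 DC arrays, 9.93, 11.76 and 10.88 on the Zeb2low arrays and 9.05, 10.02 and 8.26 on the Zeb2hi arrays. In Zeb2low against Zeb2hi CDPs 3 of them were higher and in pre-CD8 DCs against Zeb2hi CDPs 4 were, with S100a8 at 13.12 and 12.96 in pre-CD8 DCs, 12.90 to 13.13 in Zeb2low CDPs and 12.03 to 12.60 in Zeb2hi CDPs. With this mean as a covariate, chosen after the data were seen, 12 splicing genes were lower in Zeb2low CDPs (7.48% of all genes) and 6 in pre-CD8 DCs (4.3%). In Zeb2low CDPs the calls of Hnrnpdl, Hnrnpk, Lsm3, Prpf3, Prpf4, Sf3b3, Srsf3 and Srsf6 were lost (limma adjusted p = 0.051 to 0.174) and Sf3b2 was gained (0.0367). The differences of Hnrnpk, Sf3b3, Srsf3 and Srsf6 were larger in size with the covariate, at -0.50, -1.0, -1.75 and -1.11, and those of Hnrnpdl, Lsm3, Prpf3 and Prpf4 smaller, at -0.58, -0.62, -0.44 and -0.79, and the standard errors of all 8 were larger. In pre-CD8 DCs the calls of Srsf1, Srsf9, Sf3a3, Prpf31 and Lsm7 held, 12 were lost with differences of -0.42 to -2.04 (0.0743 to 0.351) and Hnrnph2 was gained (0.0246). The mean of 6 monocyte and macrophage markers was highest in Zeb2hi CDPs, as that of the splicing genes was. It was 6.89 to 7.53 in pre-CD8 DCs, 7.36 to 7.73 in Zeb2low CDPs and 8.0 to 8.22 in Zeb2hi CDPs. The markers did not move as 1: in Zeb2low against Zeb2hi CDPs 3 of 6 differences were negative, with 1 marker lower and 0 higher. In pre-CD8 DCs against Zeb2hi CDPs 4 of 6 were negative, with 2 markers lower and 0 higher. The B cell, erythroid and T, NK and innate lymphoid lists, of which 5, 4 and 3 markers were tested, had means of 4.28 to 6.20 on all arrays. Of these, Cd3e, Il7r and Cd79a were higher in Zeb2low than in Zeb2hi CDPs, and Cd3e and Cd79a in pre-CD8 DCs. Of 6 plasmacytoid DC markers, Ccr9, Ly6d and Siglech were higher in Zeb2low than in Zeb2hi CDPs (median of the list 0.78), and in pre-CD8 DCs Ccr9 was higher and Cox6a2 lower than in Zeb2hi CDPs (median -0.04). The mean of this list was 7.19 and 7.11 in pre-CD8 DCs, 7.07 to 7.75 in Zeb2low CDPs and 6.94 to 7.16 in Zeb2hi CDPs. Of 8 CDP and DC progenitor markers, Zeb2 included, 2 were higher and 1 lower in Zeb2low than in Zeb2hi CDPs, and 3 higher and 3 lower in pre-CD8 DCs than in Zeb2hi CDPs. Their mean was 8.09 and 7.85 in pre-CD8 DCs, 7.73 to 8.30 in Zeb2low CDPs and 8.21 to 8.53 in Zeb2hi CDPs.

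The spread of signals also differed between groups, since the 90th percentile of log2 signal over all probe sets was 8.47 and 8.33 on the pre-CD8 DC arrays, 8.21, 8.33 and 8.34 on the Zeb2low arrays and 8.47, 8.53 and 8.50 on the Zeb2hi arrays. When the arrays were forced to 1 distribution by quantile normalization, 11 splicing genes were lower in Zeb2low CDPs (7.19% of all genes), 41 of 70 differences were negative and their median was -0.09. The medians of the SR, hnRNP and U1 genes then turned positive, at 0.06, 0.01 and 0.16, while those of the LSm ring, tri-snRNP and Sm ring stayed at -0.34, -0.47 and -0.30. The calls of Srsf3 (limma adjusted p = 0.0584), Srsf6 (0.0539), Lsm3 (0.224), Snrpd2 (0.121), Sf3b3 (0.0641), Prpf3 (0.117), Hnrnpdl (0.338) and Hnrnpk (0.737) in Zeb2low CDPs were lost, with differences from -0.08 for Hnrnpk to -1.18 for Srsf3. In pre-CD8 DCs 7 of 70 were lower, a share near that of all genes (8.46%), and the median was -0.36, and the calls of Hnrnpab, Hnrnph1, Hnrnpr, Lsm12, Lsm2, Lsm3, Lsm5, Lsm8, Prpf38a and Snrpd2 were lost (0.0631 to 0.189). Centring each array on its median moved the median of all genes in Zeb2low against Zeb2hi CDPs to -0.14, and that of the splicing genes to -0.56, with 32 lower (16.7% of all genes). The part of the marker lists and of the spread of signals in these differences was not tested further.

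**Figure D5:**
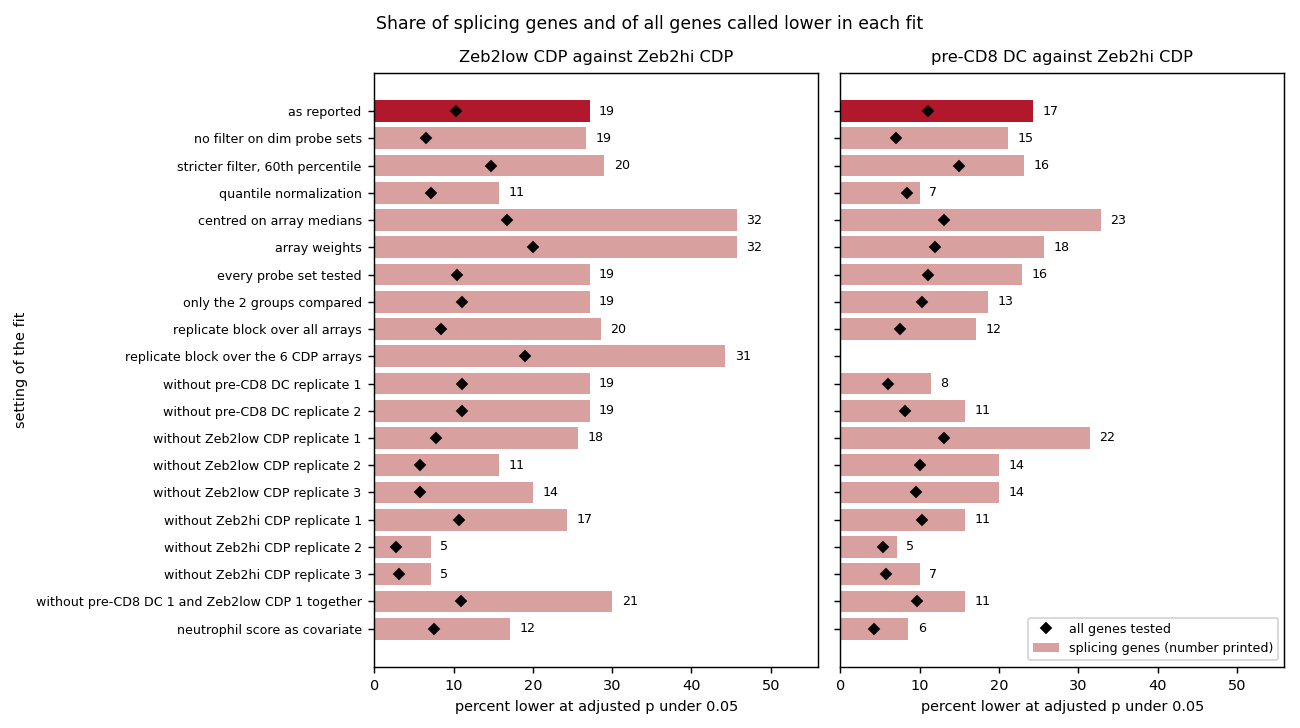
Percent of the 70 splicing genes called lower (bars, with the number of genes printed) and of all genes tested (diamonds) under each setting of the fit, for Zeb2low CDPs (left) and pre-CD8 DCs (right), both against Zeb2hi CDPs. Darker bars are the values of the text. Bars range from 5 to 32 genes on the left and from 5 to 23 on the right and lie past the diamond in every setting; the block over the 6 CDP arrays does not apply on the right.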

How the data were processed

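Gene expression in 8 samples was measured on Affymetrix arrays after whole-transcriptome amplification of small amounts of RNA, per the labels' protocols. The authors deposited 1 intensity per probe set on a linear scale, summarised with Affymetrix Expression Console and RMA according to the submitters' processing notes, which name no version here. RMA gives no detection call and compresses differences of dim genes. The table holds 28853 probe sets, of which the platform annotation names 1 gene for 21789, several for 1621 and none used here for 5443. Sample titles gave the groups and the replicate numbers.

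The deposited intensities were log2 transformed. A probe set was kept if its signal passed the 40th percentile of the array on 2 arrays or more, and the one with the highest mean stood for a gene. Groups were compared with limma 3.58.1 (lmFit, eBayes, two-sided) in R 4.3.3, with 5 residual degrees of freedom, and p-values were adjusted after Benjamini-Hochberg over 13356 genes in each comparison at 0.05. The precision rests on the number of arrays and on each gene's spread as limma estimates it, and not on the number of splicing genes. Symbols of all 71 members matched RefSeq, which also gave the promoters. Genes with Snrnp symbols do not match the rule and were kept as pathway genes. The members, lists, roles and tests were chosen with earlier results of these data known, so a list's counts and median are descriptions.

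Named were, per subfamily and comparison, up to 4 called members, by size of difference, or else the 2 lowest p-values, members whose groups do not overlap in order, fixed paralogue pairs, members with disagreeing probe sets, and up to 2 genes past the test per pathway list. Other members in the text were added after their values were seen. Across genes, deviations from the group mean correlated between Zeb2low and Zeb2hi arrays of 1 number. The r was 0.478 for number 1, 0.407 for 2 and 0.308 for 3. The numbers were therefore taken to pair these arrays in the fits with a block, although the labels give the numbers no meaning. The block over all arrays also paired the pre-CD8 DC arrays by number, which this check did not cover. Over the genes tested, pre-CD8 DC array 1 correlated at 0.883 with Zeb2low array 1 and at 0.958 with Zeb2low array 2. Pre-CD8 DC array 2 correlated at 0.955 with Zeb2low array 2 and at 0.966 with Zeb2low array 3. Blocked values for pre-CD8 DCs thus rest on an unchecked pairing. The main fit has no block. Blocked values stand beside the calls and counts of splicing genes that they change.

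Alternatives were the filter, quantile normalization, centring, array weights, every probe set tested, the 2 groups alone, the replicate block, each array left out, and, added after the data were seen, pre-CD8 DC and Zeb2low arrays 1 left out together and a neutrophil covariate. On simulated data with 100 genes changed per size, the fit over 13356 genes recovered 53 changed by 1 and 90 changed by 2 on the log2 scale for Zeb2low against Zeb2hi CDPs with 2 false calls, 38 and 88 for pre-CD8 DCs against Zeb2low CDPs with 8, and 54 and 88 for pre-CD8 DCs against Zeb2hi CDPs with 12. The noise was independent between genes. Far fewer genes were changed than were called in the 2 comparisons against Zeb2hi CDPs, and the adjusted p depends on the share of changed genes. The recovered numbers therefore do not give the power in these data.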

Additional observations from a re-analysis of the deposited data

How the results depend on the processing

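Every count of splicing genes called higher was 0 in all 3 comparisons under every setting, as was the count lower in pre-CD8 DCs against Zeb2low CDPs. The count lower in Zeb2low against Zeb2hi CDPs, 19 as reported, was 11 after quantile normalization, 32 after centring, 32 with array weights, 31 with the replicate block over the 6 CDP arrays and 12 with the neutrophil covariate; with the block over all arrays it was 20. It ranged from 5 to 19 with 1 array left out, with 5 without Zeb2hi array 2 or 3 and 11 without Zeb2low array 2. The count lower in pre-CD8 DCs against Zeb2hi CDPs, 17 as reported, was 7 after quantile normalization, 6 with the neutrophil covariate, 12 with the block and 11 without arrays 1 of pre-CD8 DCs and Zeb2low CDPs together. It ranged from 5 (without Zeb2hi array 2) to 22 (without Zeb2low array 1) with 1 array left out, and was 8 and 11 without pre-CD8 DC array 1 and 2, 11 without Zeb2hi array 1 and 7 without Zeb2hi array 3. The pre-CD8 DC calls of Lsm2, Lsm8, Lsm12 and Prpf38a were also lost with only the 2 groups compared (adjusted p = 0.0503 to 0.0894). Apart from what centring, normalization and the covariate change by construction, the causes were not tested. Calls held under all settings for Prpf31, Sf3a3, Srsf1 and Srsf9 in both comparisons, and for Lsm7 in the second. Of all calls in Zeb2low against Zeb2hi CDPs 30.4% were higher as reported, 14.2% after centring and 40.9% after quantile normalization; in pre-CD8 DCs these shares were 60.8% and 72.3% after centring against Zeb2low CDPs. With 2 and 3 arrays a group, a difference that misses the test is not shown to be absent.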
